A study of Arabidopsis thaliana with 9 samples.

Results

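Roots of Arabidopsis seedlings fixed in flight at the first of a pair of in-flight actuations were set against roots fixed on the ground during the same flight. All seedlings carried a transgene in which the CaMV 35S promoter, active in most plant cells, drives the 14-3-3κ protein fused to GFP, in the Wassilewskija (WS) background. They were 10 days old and grown in continuous light. The first-actuated group held 3 arrays and the ground group held 3 arrays, out of 9 arrays in the series. A last-actuated in-flight group of 3 arrays entered only the estimate of spread and side-by-side values. Each group came from a single Kennedy Space Center fixation tube, a sealed device that releases the preservative RNAlater onto the plants. The tubes that flew were carried in pockets of a flight suit, while a person on the ground held the remaining tube, so handling, tube and flight cannot be told apart. The treatment protocol puts the first actuation in the low-altitude acceleration, whereas the series' design text puts in-flight actuation after the return to level flight and does not separate the tubes. The comparison addresses how the root transcriptome of first-actuated seedlings differed from that of plants that stayed on the ground.

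The compared items were all 16722 probe sets that the platform annotation pairs with exactly 1 gene, out of 38408 on the array. The values are log2 intensities after the authors' normalization. A total of 1964 of these probe sets carried a gene symbol or descriptive name, and 14758 carried a locus identifier only. A gene is described here by function only where a name was available. Symbols such as AT1G52870 are loci given without a function. The probe set of the gene for 14-3-3κ was not analysed here.

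Root cells balance carbon and nitrogen supply against growth. When sugar is short, the kinase SnRK1 and its partner bZIP factors are known to raise genes that break down amino acids, and autophagy recycles cell contents. Auxin, the hormone of root growth and bending, is kept in check by GH3 enzymes that attach it to amino acids. Growth also depends on wall-loosening proteins such as expansins, XTH enzymes and endoglucanases. Lignin and other phenylpropanoids stiffen or protect the wall.

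The 3 arrays of each group were alike. Pearson correlations over all probe sets of the table lay between 0.985 and 0.988 for the 6 pairs within a group and between 0.980 and 0.984 for the 9 pairs across the groups. The labels call them biological replicates but take them from 1 tube per group, so the p-values cover only how far pools from that tube varied, which may be technical. Of 13 root markers 2 were measured, and 0 passed the test. PYK10, an abundant root glucosidase of the endoplasmic reticulum body, averaged 12.4 in first-actuated roots and 12.4 in ground roots. EXPA7, an expansin of root hairs, averaged 4.72 in first-actuated roots and 5.31 in ground roots (limma adjusted p = 0.0584). Of 10 shoot markers 2 were measured, and 0 passed. LHB1B2, a light-harvesting protein gene, read 7.15, 8.45 and 8.11 on the first-actuated arrays and 7.22, 6.89 and 6.88 on the ground arrays. Higher values thus appeared on 2 of the 3 first-actuated arrays, while the remaining one lay among the ground arrays. The summed linear signal of both shoot markers was 482 to 659 in first-actuated roots and 373 to 416 in ground roots. Their part in the results below was not tested. Whole roots are mixed tissue, so fewer cells of a type and less RNA per cell cannot be told apart.

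Among the 16722 probe sets, 380 were higher and 435 were lower in first-actuated roots by limma at a Benjamini-Hochberg adjusted p under 0.05. These 815 stand beside a background of 4.89% called among all 17481 probe sets tested, which is nearly the same population. At least a 2-fold difference was reached by 92 of the higher and 75 of the lower probe sets. The 3 first-actuated arrays and the 3 ground arrays did not overlap for any of the 815, a separation also seen for 20.4% of all probe sets tested. Without ground replicate 1 the calls over all probe sets tested numbered 549, and without ground replicate 2 they numbered 557, against 855 with every array.

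Calls were concentrated among bright probe sets. Probe sets were called dim when their mean over the 9 arrays lay below the median of the table (3.297 on the log2 scale), bright when it was 6 or more, and middle otherwise. In the bright class 417 of 3833 probe sets passed, 172 higher and 245 lower. Over all bright probe sets tested the shares were 10.8% called, 4.37% higher and 6.39% lower. In the middle class 321 of 4693 passed, 163 higher and 158 lower, beside 6.88% called, 3.43% higher and 3.45% lower. In the dim class 77 of 8196 passed, 45 higher and 32 lower, beside 0.941% called, 0.565% higher and 0.376% lower. Dim probe sets thus made up the largest class and the fewest calls. An unadjusted limma p under 0.05 was seen for 1229 bright, 1141 middle and 689 dim probe sets, 3059 of the 16722. Counts of family members at that level, given below, stand beside these.

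Size and spread both moved with brightness. Probe sets were sorted by brightness into 10 bins of equal size. The share called ran from 0.179% in the dimmest bin to 12.6% in the brightest. The median size of the difference was 0.07 in the dimmest bin and 0.17 in the brightest, on the log2 scale. The median SD between arrays of a group was 0.11 in the dimmest bin, 0.20 in the sixth and 0.12 in the brightest. In the dimmest bins both the spread and the differences were small. Among called probe sets the median size was 0.64 in the bright class, 0.78 in the middle class and 0.61 in the dim class. The smallest called difference was 0.34 in the bright and middle classes and 0.40 in the dim class.

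**Figure D1:**
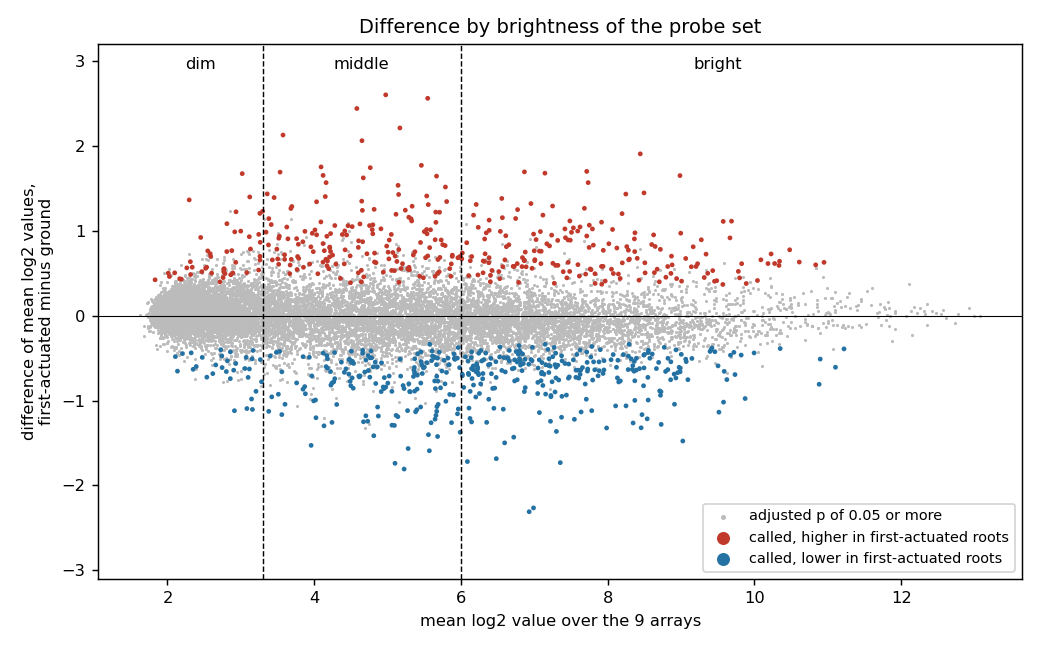
Difference of mean log2 values (first-actuated minus ground, vertical axis) against the mean log2 value over 9 arrays (horizontal axis), 1 point for each of 16722 probe sets. Red points were called higher, blue points were called lower and grey points were not called, and dashed lines at 3.297 and 6 part the dim, middle and bright classes. Most of the 8196 dim points lie in a narrow grey band.

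**Figure D2:**
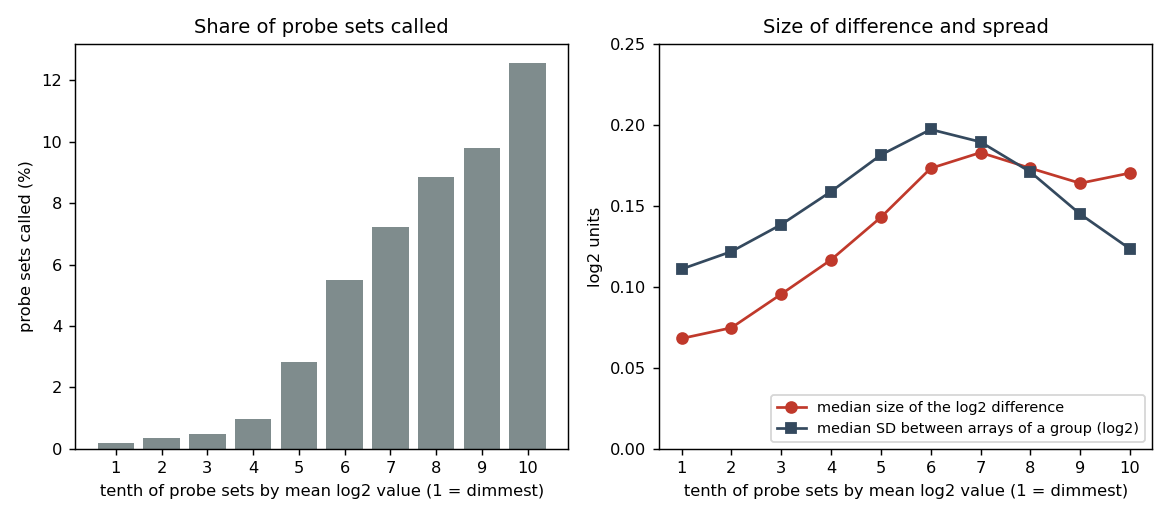
Left, share of probe sets called in percent for each of 10 bins by brightness, from the dimmest to the brightest. Right, the median size of the log2 difference and the median SD between arrays of a group, in log2 units, for the same bins. The share called runs from 0.179% to 12.6%, and the SD peaks in the sixth bin at 0.20.

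Medians over whole classes lay close to 0. The median difference was -0.07 in the bright class, -0.03 in the middle class and 0.04 in the dim class. With each array centred on its own median, the share of calls that were higher moved to 40.6%, against 46.1% as deposited, over all probe sets tested. Differences of a few hundredths of a log2 unit therefore carry no direction here, and lists with such medians are given by their calls.

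Bright genes with the largest increases included CCR2, which encodes a cinnamoyl-CoA reductase of the lignin pathway. CCR2 read 9.67, 9.26 and 9.28 in first-actuated roots and 7.78, 8.11 and 7.98 in ground roots. All first-actuated arrays lay above all ground arrays, by a mean of 1.45 ± 0.15 (SE, n = 3 each) on the log2 scale, a 2.72-fold increase (limma adjusted p = 0.00075). The other bright genes with the largest increases were known by locus only. AT5G43540 read 7.95, 8.06 and 8.03 in first-actuated roots and 6.29, 6.33 and 6.34 in ground roots. AT5G13880 read 8.48, 8.03 and 8.06 in first-actuated roots and 6.60, 6.49 and 6.45 in ground roots. AT4G29930 read 7.46, 7.39 and 7.51 in first-actuated roots and 6.04, 6.11 and 6.07 in ground roots. The ranges within each group were far smaller than the gap between the groups in these 3 genes. Between the top of this set, AT1G52870 at 1.91, and its lower end, AT3G62260 at 1.29, lay AT1G71000, AT5G07330, AT2G26380, AT1G44414, AT1G52565 and AT2G21820.

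The 2 largest decreases in the bright class were larger in size than its largest increase. AT1G49570 fell to 5.61, 5.02 and 5.26 in first-actuated roots, against 7.48, 7.76 and 7.59 in ground roots. AT3G05150 fell to 5.26, 5.29 and 5.42, against 7.45, 7.60 and 7.72 in ground roots. Both sat in the bright class by their means over 9 arrays, yet fell below 6 in first-actuated roots. GH3.3, an auxin-conjugating enzyme gene, and ETFQO, described below, were the only ones of these 12 with a descriptive name. AT1G13670 fell by 1.72, AT5G23350 by 1.68, AT2G02680 by 1.50, AT5G26740 by 1.48 and AT1G56680 by 1.43. AT2G43140, AT2G40420 and AT5G41290 fell by 1.36, 1.32 and 1.32 on the same log2 scale. None of these 24 bright genes lost its call under any alternative setting, left-out arrays included.

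**Figure D3:**
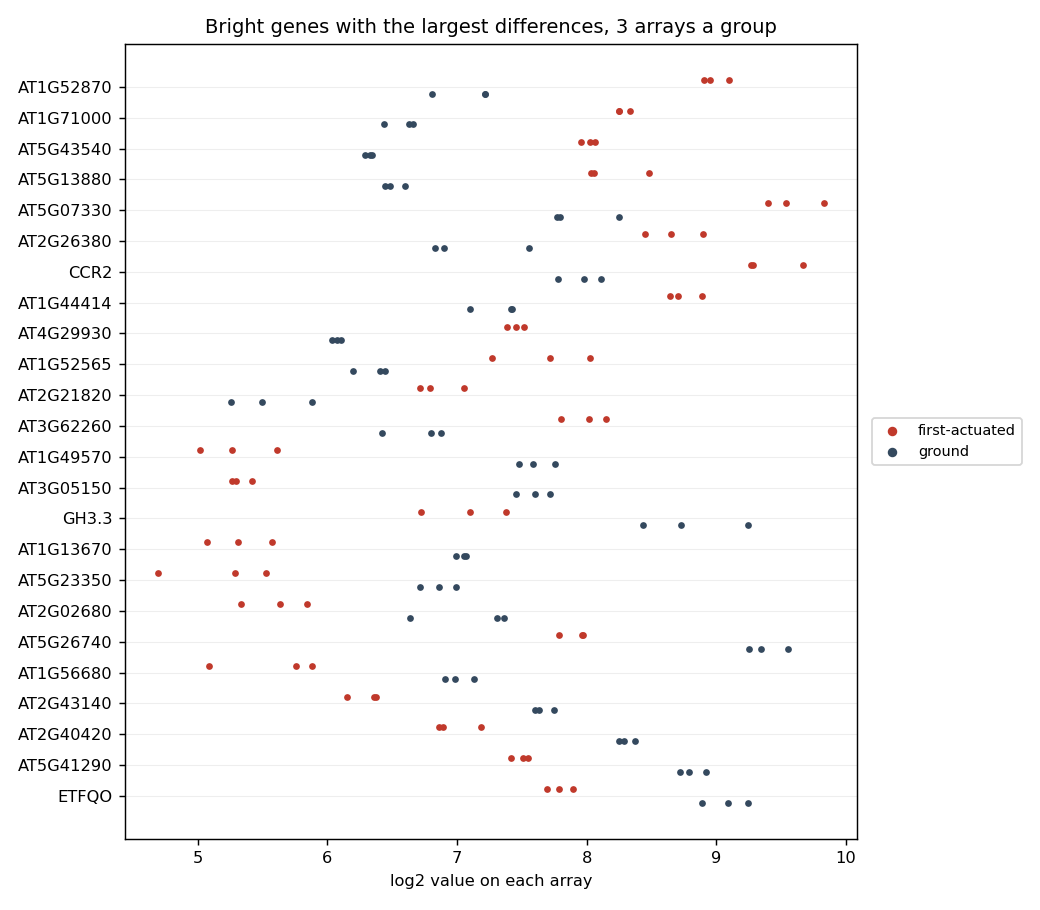
Log2 value on each array (horizontal axis) for the 12 bright genes with the largest increases, at the top, and the 12 with the largest decreases. Red points are first-actuated arrays and dark points ground arrays, 3 of each per gene. The colours do not overlap within any gene.

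Genes of amino acid and ureide breakdown were lower in first-actuated roots. Of 15 measured members, 9 fell and 0 rose, against 2.64% called lower and 2.25% called higher among all probe sets tested, and the list median was -0.55. The shares called lower were 6.39% in the bright and 3.45% in the middle class, the classes that hold these genes. The list was assembled with earlier results of these data known, so its direction is a description. The count of lower members was 5 without first-actuated replicate 2, 6 without first-actuated replicate 3, ground replicate 1 or ground replicate 2, and 8 without first-actuated replicate 1 or ground replicate 3.

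ETFQO encodes the oxidoreductase that passes electrons from branched-chain amino acid and lysine breakdown to ubiquinone in mitochondria. It read 7.90, 7.78 and 7.70 in first-actuated roots and 8.89, 9.24 and 9.09 in ground roots, a fall of 1.28 ± 0.11 (SE, adjusted p = 0.000241). Its arrays were nearly a full log2 unit apart at their closest. ASPGB1, an asparaginase gene, read 7.80, 7.51 and 7.46 in first-actuated roots and 8.65, 9.28 and 8.63 in ground roots, a fall of 1.26 ± 0.18. MCCB encodes a subunit of methylcrotonyl-CoA carboxylase, which acts in leucine breakdown. Its values were 7.78, 7.36 and 7.51 in first-actuated roots and 8.55, 8.59 and 8.50 in ground roots, a fall of 1.00 ± 0.12. The ground arrays of MCCB were close to each other, and the first-actuated arrays were more scattered.

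ALDH6B2 encodes methylmalonate semialdehyde dehydrogenase, an enzyme of valine breakdown. It read 6.43, 6.34 and 6.24 in first-actuated roots and 7.26, 7.25 and 7.26 in ground roots, a fall of 0.92 ± 0.11. AAH, an allantoate amidohydrolase gene of ureide breakdown, read 6.07, 6.15 and 6.33 in first-actuated roots and 6.87, 7.04 and 6.91 in ground roots, a fall of 0.76 ± 0.11. For both genes the groups were separated by more than the whole range within either group. Smaller falls passed for PPDK, the gene of pyruvate orthophosphate dikinase (-0.69 ± 0.13), and for the lysine-degrading enzyme gene LKR at AT4G33150 (-0.57 ± 0.12). They also passed for D2HGDH, which encodes a 2-hydroxyglutarate dehydrogenase (-0.55 ± 0.13), and for the aldehyde dehydrogenase gene ALDH7B4 (-0.39 ± 0.09). These 4 calls were each lost in 2 or more of the 6 fits that left out 1 array, with adjusted p-values of up to 0.145.

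The 6 members that did not pass covered neighbouring steps. ALN, the allantoinase gene that acts just before AAH in ureide breakdown, differed by -0.54 (adjusted p = 0.0516). DELTA-OAT, an ornithine aminotransferase gene, differed by -0.24, and MGL, a methionine lyase gene, by -0.12. UGLYAH, the last ureide enzyme gene, differed by -0.06. ETFALPHA, which encodes a subunit of the flavoprotein that feeds ETFQO, differed by 0.03, and the second asparaginase gene ASPGA1 by 0.02. Within the same pathway, then, ETFQO passed and ETFALPHA did not, and ASPGB1 passed and ASPGA1 did not, with no test of the difference between the members of a pair.

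The regulatory and recycling genes of low energy were measured beside them. AKINBETA1, a beta subunit of SnRK1, read 9.15, 9.02 and 9.24 in first-actuated roots and 9.83, 9.84 and 9.71 in ground roots, a fall of 0.66 ± 0.10 (adjusted p = 0.00456). The other two beta subunit loci, AT2G28060 and AT4G16360, did not pass. Of 11 autophagy genes 3 fell and 0 rose, with a median of -0.29 and 10 of 11 differences below 0. None of the 11 was dim, 6.39% of bright and 3.45% of middle probe sets were called lower, and the bright class as a whole had a median of -0.07. ATG8E, a ubiquitin-like protein gene of autophagosomes, kept its call with any array left out, with 8.43, 8.14 and 8.37 in first-actuated roots and 8.91, 8.99 and 8.96 in ground roots. ATG8H and ATG101 (AT5G66930), an initiator of autophagosome formation, each lost the call in 5 of the 6 fits that left out 1 array. BZIP53, a factor known to activate amino acid metabolism genes under low energy, fell by 0.40 ± 0.09, and its call too was lost in 5 of those 6 fits.

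The last-actuated roots, set against the same ground arrays, differed among the 9 called breakdown genes. Their mean was above the ground mean for 4 genes, ETFQO, MCCB, ALDH6B2 and AAH, and below it for 5, with differences from -0.40 (AT4G33150) to 0.46 (MCCB) on the log2 scale. ETFQO averaged 7.79 in first-actuated roots, 9.32 in last-actuated roots and 9.07 in ground roots. MCCB averaged 7.55 in first-actuated, 9.01 in last-actuated and 8.55 in ground roots. ALDH6B2 averaged 6.34 in first-actuated, 7.54 in last-actuated and 7.26 in ground roots. ASPGB1, among the 5 below the ground mean, averaged 7.59 in first-actuated, 8.60 in last-actuated and 8.85 in ground roots. In each of the 9 genes the first-actuated mean was the lowest of the 3. The difference between the in-flight groups was not tested here.

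**Figure D4:**
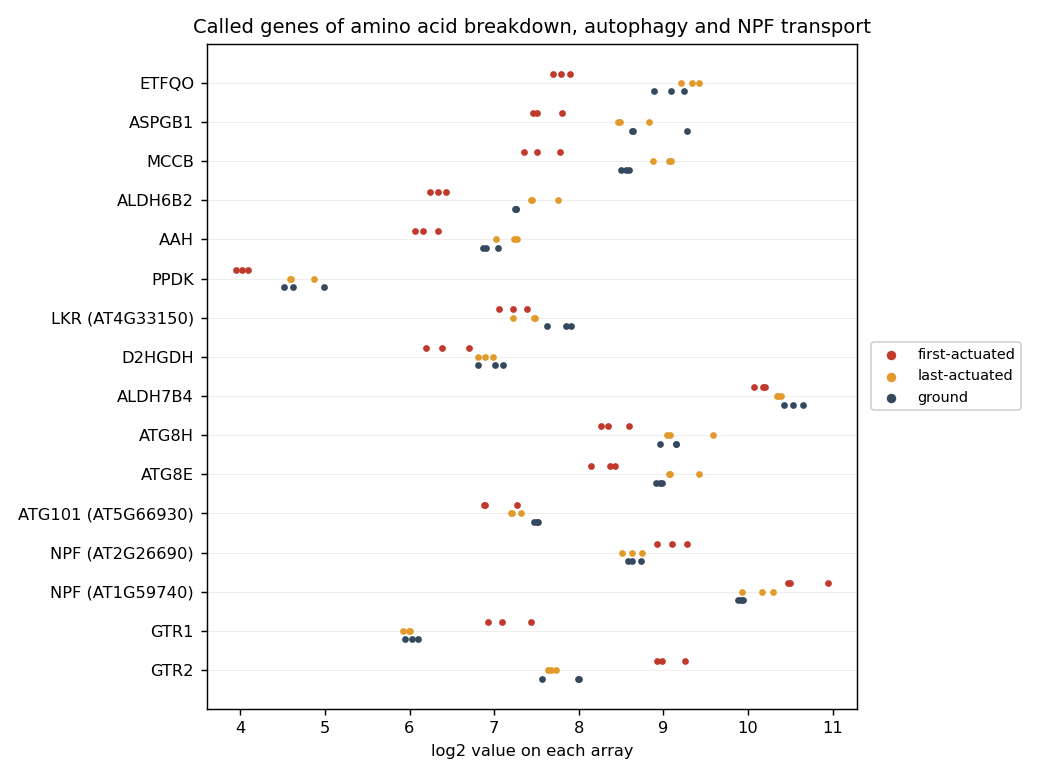
Log2 value on each array (horizontal axis) for the called genes of amino acid and ureide breakdown, autophagy and the NPF transporter family. Red points are first-actuated arrays, orange points last-actuated arrays and dark points ground arrays, 3 of each per gene. Red lies lowest in the genes of breakdown and autophagy and highest in the NPF genes, except that red and orange overlap in AT4G33150 and AT5G66930.

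Sugar transport genes with a name gave few calls. The list was drawn by symbol, so any transporter known by locus only was not in it. Of 21 measured members, 12 of them dim, 1 rose and 2 fell, where 4.89% of all probe sets tested were called. Differences were positive for 15 of the 21, with a median of 0.09, whereas 51.5% of all probe sets paired with 1 gene were positive. The largest difference, 1.14, belonged to a member that did not pass. TMT1, which encodes a vacuolar monosaccharide importer, read 9.58, 9.55 and 9.51 in first-actuated roots and 10.03, 10.09 and 9.91 in ground roots, a fall of 0.46 ± 0.08. SWEET2, a vacuolar sugar transporter gene, was scattered, at 5.46, 3.97 and 4.55 in first-actuated roots and 5.98, 6.62 and 6.15 in ground roots. SWEET17, a vacuolar fructose transporter gene, rose by 0.39 ± 0.08, a call lost in each of the 6 fits that left out 1 array, while that of SWEET2 was lost in 3. The wall invertase gene cwINV6 had the more even values, 7.65, 7.56 and 7.54 in first-actuated roots and 8.86, 8.69 and 8.69 in ground roots. That was a fall of 1.17 ± 0.09 (adjusted p = 0.000118), the smallest adjusted p among the called genes with a descriptive name.

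Transporters of the NPF family, which carry nitrate, peptides, hormones and glucosinolates, included 4 that rose and 0 that fell of 13 measured. All 4 were bright, and 4.37% of bright probe sets and 2.25% of all probe sets tested were called higher. GTR2, a glucosinolate importer gene, read 8.98, 9.26 and 8.92 in first-actuated roots and 7.57, 8.002 and 7.99 in ground roots. Its paralog GTR1 read 7.43, 6.93 and 7.10 in first-actuated roots and 5.95, 6.10 and 6.03 in ground roots. Both of these genes thus stood above the ground by more than the range within either group. GTR2 rose by 1.20 ± 0.13 (limma adjusted p = 0.000973) and GTR1 by 1.13 ± 0.12 (limma adjusted p = 0.000839). AT1G59740 rose by 0.73 ± 0.14 and AT2G26690 by 0.45 ± 0.11. The family count fell to 2 without ground replicate 2, where only GTR1 and GTR2 passed, and was 3 without first-actuated replicate 2 or 3, or without ground replicate 1 or 3. The 9 other members lay between -0.23 and 0.14, and the family median was -0.02.

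Auxin genes did not move as a block. Of 6 GH3 genes, 1 rose and 2 fell, where 2.25% of all probe sets tested were called higher and 2.64% lower. GH3.3 read 7.38, 6.72 and 7.10 in first-actuated roots and 9.24, 8.72 and 8.44 in ground roots, a fall of 1.73 ± 0.22 (adjusted p = 0.00198). GH3.17, which encodes an enzyme known to conjugate auxin to glutamate, ran the other way, with 7.03, 6.90 and 7.16 in first-actuated roots and 6.12, 6.05 and 6.21 in ground roots. WES1, a further GH3 gene, fell by 0.59 ± 0.13, a call lost in 4 of the 6 fits that left out 1 array. Of 11 Aux/IAA and auxin transcription factor genes, 7 of them dim, LBD29 alone passed (-0.82 ± 0.18), and its call was lost in 4 of those fits. Of 4 YUC genes of auxin synthesis, 3 of them dim, limma called 0, and 0 had an unadjusted p under 0.05. BAT1, an acyltransferase gene that acts on brassinosteroids, a separate growth hormone class, rose by 0.99 ± 0.14. EXO, a wall protein gene known to respond to brassinosteroids, read 4.78, 5.13 and 4.73 in first-actuated roots and 6.33, 6.38 and 5.71 in ground roots, a fall of 1.26 ± 0.17.

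Wall-loosening families had calls in few members and both directions. EXPB1, a beta-expansin gene, read 5.26, 5.80 and 5.56 in first-actuated roots and 4.07, 4.45 and 4.37 in ground roots, an increase of 1.24 ± 0.14 (adjusted p = 0.00104). EXLA2, of the expansin-like group, fell by 1.20 ± 0.23, a call lost in 2 of the 6 fits that left out 1 array. The remaining 22 of 24 expansin genes did not pass, where 4.89% of all probe sets tested were called. Of 10 XTH genes, whose enzymes remodel xyloglucan, XTH21 rose by 0.97 ± 0.16 and the dim XTH19 by 0.76 ± 0.16, the call of XTH19 being lost in 5 of those 6 fits. GH9C2 was the only one called of 19 GH9 endoglucanase genes, which cut glucan chains of the wall. It read 7.78, 7.59 and 7.56 in first-actuated roots and 6.45, 6.57 and 6.48 in ground roots, an increase of 1.14 ± 0.09 (adjusted p = 0.000139).

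Genes of wall synthesis and lignin gave a further few calls. CSLA03, of a family of mannan synthases, fell by 0.85 ± 0.14, the only one of 9 CSL genes to pass. Over all probe sets tested 2.64% were called lower, and by class 3.45% of middle and 6.39% of bright ones. Limma called 0 of 24 TBL genes, a family of wall acetyltransferases, with 5 at an unadjusted p under 0.05. That level was reached by 3059 of all 16722 probe sets. In the lignin pathway 2 of 10 genes rose and 0 fell, where 2.25% of all probe sets tested were called higher. The list median was -0.08, and 7 of the 10 differences were below 0, the lowest at -0.41. Beside CCR2, HCT, a hydroxycinnamoyl transferase gene, read 9.52, 9.43 and 9.51 in first-actuated roots and 8.71, 8.85 and 8.88 in ground roots, an increase of 0.67 ± 0.09. ALDH2C4, which encodes an aldehyde dehydrogenase of ferulate synthesis, differed by -0.07 and did not pass. Of 8 peroxidases with a name Prx37 fell by 0.67 ± 0.11, and the dim PRXCA rose by 0.64 ± 0.12, a call lost in 3 of the 6 fits that left out 1 array. The share called in either direction was 4.89% of all probe sets tested.

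Detoxification and specialised metabolism genes were mostly not called. Of 55 UGT glycosyltransferase genes, 29 of them dim, 2 rose and 1 fell, a share near the 4.89% called over all probe sets tested. UGT73D1 rose by 0.46 ± 0.11. UGT76B1, which encodes an enzyme known to glucosylate defence signals, read 9.36, 9.09 and 9.49 in first-actuated roots and 10.25, 10.39 and 10.24 in ground roots, a fall of 0.98 ± 0.11 (adjusted p = 0.000915). UGT71C2 was dim, with 3.73, 2.97 and 3.42 in first-actuated roots and 2.42, 2.37 and 2.37 in ground roots. Of 15 glutathione transferase genes 2 rose, GSTU20 and GSTF3 (0.76 ± 0.15), and GSTU22 fell by 0.58 ± 0.14. GSTU20 read 6.33, 6.51 and 6.53 in first-actuated roots and 5.48, 5.04 and 4.63 in ground roots, an increase of 1.41 ± 0.21, where most of the scatter was on the ground. Of 24 BGLU genes 2 rose, BGLU27 and BGLU40 (1.07 ± 0.20), and BGLU16 fell by 0.42 ± 0.10. Of 20 CYP71B genes, 16 of them dim, limma called 0, with 3 at an unadjusted p under 0.05. That level was reached by 689 of all 8196 dim and 3059 of all 16722 probe sets. Of 32 scpl carboxypeptidase genes 2 fell, scpl16 by 1.16 ± 0.22 and scpl48 by 0.58 ± 0.14. In the 6 fits that left out 1 array, the calls of BGLU16 and GSTU22 were lost in 6, that of scpl48 in 5, UGT73D1 in 4, GSTF3 in 2 and BGLU40 in 1.

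Transcription factor genes moved in both directions. HYH, a bZIP factor gene of light signalling and a homolog of HY5, read 4.95, 4.80 and 4.85 in first-actuated roots and 5.75, 6.20 and 5.98 in ground roots, a fall of 1.11 ± 0.13 (adjusted p = 0.00111). With bZIP44 (-0.61 ± 0.11) and BZIP53 it made 3 lower and 0 higher of 25 bZIP genes. Of 10 ERF and DREB genes, LEP, of the ERF group, rose by 1.16 ± 0.15 and ORA47, a factor known to raise jasmonate synthesis, by 0.83 ± 0.12. ABR1, a repressor of abscisic acid responses, read 9.29, 8.99 and 9.06 in first-actuated roots and 9.76, 9.83 and 9.83 in ground roots, a fall of 0.69 ± 0.10. Of 19 bHLH genes 1 rose and 3 fell, with SPT, a growth repressor gene, lower by 0.64 ± 0.09. SPT alone kept its call with any array left out, since NAI1 (0.47 ± 0.10) and bHLH121 (-0.40 ± 0.10) each lost theirs in 5 of the 6 such fits and AT1G22490 (-0.55 ± 0.11) in 4. The shares of all probe sets tested were 2.25% called higher and 2.64% called lower. WRKY22 rose by 0.50 ± 0.12 out of 7 WRKY genes, but lost the call in each fit that left out 1 array.

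Chaperone genes with a name gave 4 higher and 0 lower of 18, with a median of 0.09, where 2.25% of all probe sets tested and 4.37% of bright ones were called higher. Cpn60beta2, a chloroplast chaperonin gene, read 9.37, 9.07 and 9.18 in first-actuated roots and 8.35, 8.17 and 8.21 in ground roots, an increase of 0.97 ± 0.10 (adjusted p = 0.000557). SQN, a cyclophilin gene that works with HSP90, read 6.65, 6.65 and 6.81 in first-actuated roots and 6.14, 5.94 and 6.19 in ground roots. ATHSP22.0, whose product is a small heat shock protein in the endoplasmic reticulum, read 8.61, 8.68 and 8.65 in first-actuated roots and 8.22, 8.13 and 8.08 in ground roots. These 3 genes kept their calls with any array left out, whereas Hsp70-2 (0.74 ± 0.16) lost its call in 5 of 6 such fits. In last-actuated roots Cpn60beta2 averaged 9.53, SQN 7.50 and ATHSP22.0 9.12, each further from the ground mean than the first-actuated value. In last-actuated roots Hsp70-2 lay nearer to the ground mean, with averages of 5.27 in first-actuated, 4.67 in last-actuated and 4.53 in ground roots. Of 13 genes for protein folding in the endoplasmic reticulum limma called 0, with 5 at an unadjusted p under 0.05. That level was reached by 1229 of all 3833 bright and 1141 of all 4693 middle probe sets.

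Stress-signalling genes rose in a few cases. KIN1, known to respond to cold and abscisic acid, read 6.59, 6.45 and 6.48 in first-actuated roots and 5.26, 4.86 and 4.85 in ground roots, an increase of 1.52 ± 0.12 (adjusted p = 0.000135). Its near-identical neighbour KIN2, whose RNA may reach the same probes, differed by 0.45 and did not pass. XERICO, a RING protein gene known to raise abscisic acid levels, rose by 0.55 ± 0.10. The other 8 of 11 cold and abscisic acid genes did not pass either. Over the 11, differences ran from -0.70 to 1.52, and 4 were below 0. Up to 1 member was called lower in the fits that left out 1 array. PUB24, a ubiquitin ligase gene of immune signalling, read 8.58, 8.53 and 8.68 in first-actuated roots and 7.54, 7.73 and 7.39 in ground roots, and rose by 1.04 ± 0.13. The dim PUB19 rose by 0.77 ± 0.15, a call lost in 3 of the 6 fits that left out 1 array, and the other 8 PUB genes did not pass. Over all probe sets tested 2.25% were called higher, and by class 4.37% of bright, 3.43% of middle and 0.565% of dim ones. EULS3, a lectin gene linked to stress, rose by 0.76 ± 0.10.

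Calls among calmodulin-binding and cytoskeletal genes were few. In the IQD family, whose proteins link calmodulin to microtubules, 3 of 17 members rose (IQD16, IQD23 and IQD28) and 0 fell, where 2.25% of all probe sets tested were called higher. The family median was 0.03 with 7 of 17 differences below 0, and IQD23 alone kept its call with any array left out. IQD23 read 6.22, 6.18 and 6.01 in first-actuated roots and 5.28, 5.72 and 5.36 in ground roots, an increase of 0.69 ± 0.12. The count was 1 without ground replicate 1 or ground replicate 2. Limma called 0 of 7 tubulin genes and 0 of 7 calmodulin-like CML genes, with 0 and 3 at an unadjusted p under 0.05. That level was reached by 3059 of all 16722 probe sets. Among 22 SP1L, TRM and MAP65 microtubule proteins, SP1L4 rose by 0.73 ± 0.13 and TRM24 fell by 0.60 ± 0.10. These calls stand beside 4.89% called and 2.64% called lower over all probe sets tested. SP1L4 lost its call without ground replicate 1 (limma adjusted p = 0.0542).

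Named genes outside these families added single enzymes. FaTA, a thioesterase gene that ends fatty acid synthesis in plastids, read 6.06, 5.79 and 5.60 in first-actuated roots and 4.84, 4.72 and 4.54 in ground roots, an increase of 1.12 ± 0.14. FIB, a plastid lipid-associated fibrillin gene, rose by 0.67 ± 0.12, and PYRB, which encodes aspartate transcarbamoylase of pyrimidine synthesis, by 0.61 ± 0.10. SAMDC, which encodes the S-adenosylmethionine decarboxylase of polyamine synthesis, read 8.15, 8.01 and 8.18 in first-actuated roots and 8.69, 8.79 and 8.71 in ground roots. MTP11, a manganese transporter gene, fell by 0.76 ± 0.13, and the acyl-activating enzyme gene AAE18 by 0.77 ± 0.13. PRN, a pirin gene, was very bright and rose by 0.60 ± 0.10, with 11.11, 11.16 and 11.03 in first-actuated roots and 10.37, 10.52 and 10.62 in ground roots. PHOS34, whose protein is phosphorylated in response to microbial signals, fell by 0.51 ± 0.08.

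**Figure D5:**
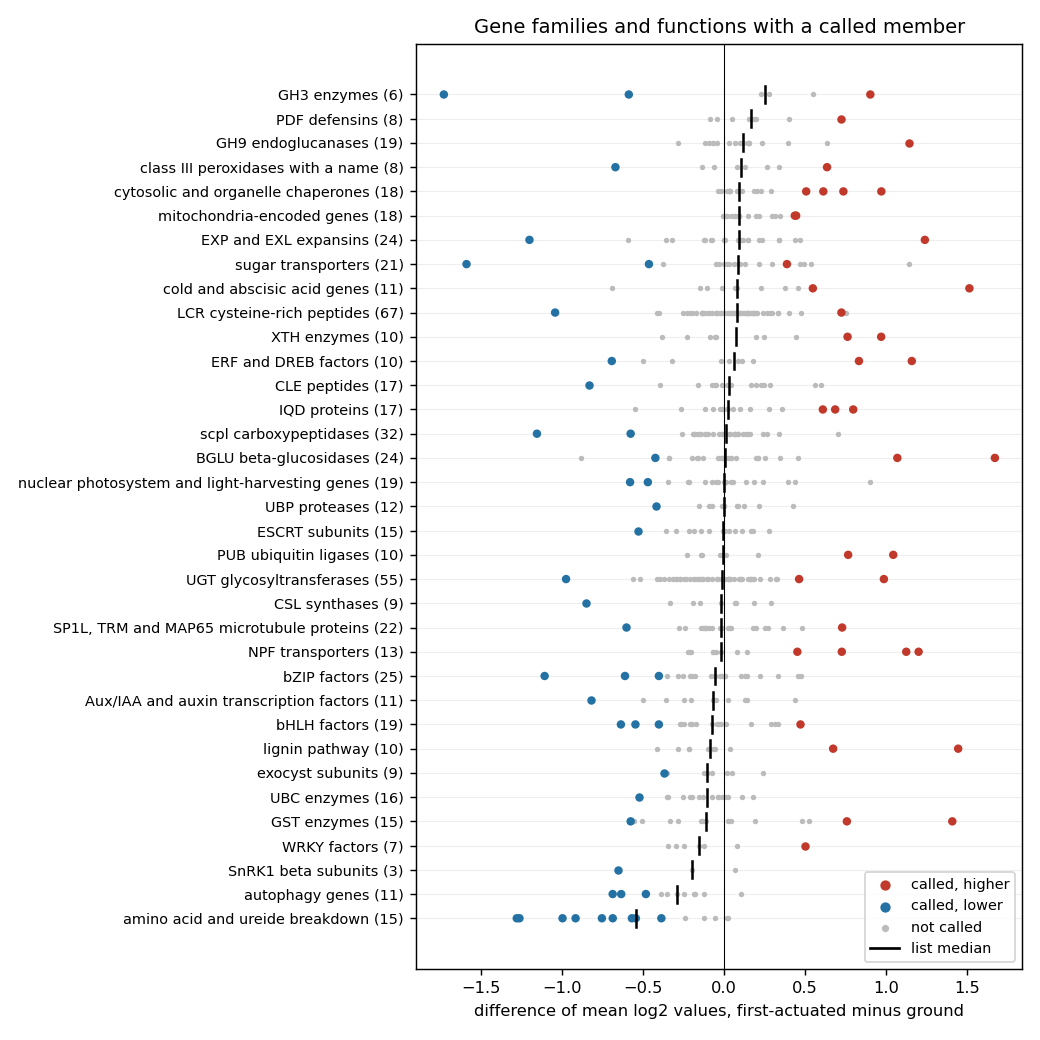
Difference of mean log2 values (first-actuated minus ground, horizontal axis) for every measured member of the 35 named families and functions with a called member, ordered by median, with the number measured in brackets. Red and blue points were called higher and lower, grey points were not called and the black tick is the median. Amino acid and ureide breakdown has the lowest median, at -0.55, and autophagy the next, at -0.29, while most other medians lie near 0.

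Differences of genes encoded in the organelles were small and mostly positive. Of 63 chloroplast-encoded genes, all of them outside the dim class, limma called 0 at a median of 0.10. Differences were positive for 53 of them, whereas 37.0% of all bright probe sets were positive. An unadjusted p under 0.05 was seen for 10, beside 1229 of all 3833 bright probe sets. The summed linear signal of these chloroplast-encoded genes was 129647 to 143939 in first-actuated roots and 127699 to 134535 in ground roots. That of 19 nuclear photosystem genes was 941 to 1104 in first-actuated roots and 829 to 925 in ground roots. The nuclear list includes the 2 shoot markers above, which alone summed to 482 to 659 in first-actuated roots and 373 to 416 in ground roots. Its median difference was 0.0009, with 10 of 19 positive. Among those nuclear genes 2 fell, PSAN (-0.58 ± 0.12), a photosystem I subunit gene, and PSBY (-0.47 ± 0.11), of photosystem II, each losing its call in 5 of 6 fits that left out 1 array. Both were in the middle class, where 3.45% of probe sets were called lower. Mitochondria-encoded genes had 27 probe sets for 18 genes, of which 3 rose and 0 fell. Nearly all of these probe sets were bright, a class with 4.37% called higher. Positive differences were seen in 25 of the 27, with a median of 0.20, whereas 37.0% of all bright probe sets were positive. The called ones were ccb382 (0.44 ± 0.11), of cytochrome c maturation, matR (0.44 ± 0.11), a maturase gene, and 1 of 7 probe sets of nad1, a subunit gene of respiratory complex I. Near-identical copies of mitochondrial genes lie in the nuclear genome, so these readings are uncertain, and each of the 3 calls was lost in at least 4 of 6 fits that left out 1 array.

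Among probe sets paired with 1 gene, the middle class held the largest increases, from loci without a name. AT1G26730 read 6.20, 6.70 and 6.53 in first-actuated roots and 3.40, 3.87 and 4.36 in ground roots, an increase of 2.60 ± 0.26. AT5G53680 read 6.81, 6.40 and 5.69 in first-actuated roots and 3.68, 3.76 and 3.77 in ground roots. AT2G29452, AT5G03890 and AT5G05220 rose by 2.44, 2.21 and 2.13 on the log2 scale. These loci read between 2.41 and 4.65 on the ground arrays and above that on every first-actuated array. AT3G61898, AT5G35940, AT1G53340 and AT3G56790 fell, by 1.53 to 1.81 on the log2 scale, and AT3G56790 lost its call in 4 of the 6 fits that left out 1 array.

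In the dim class, increases were clearest in BGLU27 and NHL25. BGLU27, a beta-glucosidase gene, read 4.32, 3.78 and 3.99 in first-actuated roots and 2.13, 2.20 and 2.75 in ground roots, an increase of 1.67 ± 0.18 (adjusted p = 0.00075). NHL25, of a family related to the defence gene NDR1, read 3.81, 3.98 and 4.09 in first-actuated roots and 2.33, 2.85 and 2.50 in ground roots. Both were below the median of the table on the ground and above it in first-actuated roots. AT3G03341 rose by 1.36 ± 0.27, with 4.03 on 1 first-actuated array against 2.72 and 2.96 on the others, and its call was lost in 3 of the 6 fits that left out 1 array. AT4G28140 rose by 1.22 ± 0.23, a call lost without ground replicate 3 (adjusted p = 0.0609). The decreases were led by AT1G15260, which read 2.75, 2.63 and 2.47 in first-actuated roots and 3.80, 3.72 and 3.69 in ground roots. AT2G36295, AT3G15440 and AT4G37240 fell by 1.11, 1.09 and 0.98, and the calls of AT3G15440 and AT4G37240 were each lost in 4 of those fits. Secreted peptide families lay mostly in this class, but their calls did not. Of 67 LCR genes 58 were dim, and the 2 called members, PDF1.4 (0.72 ± 0.17) and LCR35 (-1.04 ± 0.24), were outside the dim class and each lost the call in 5 of the 6 fits that left out 1 array. Of 18 RALFL genes 13 were dim and limma called 0, with 2 at an unadjusted p under 0.05. That level was reached by 689 of all 8196 dim and 3059 of all 16722 probe sets. Of 17 CLE genes, CLE20, outside the dim class, fell by 0.84 ± 0.15. These few calls stand beside 4.89% called over all probe sets tested, 6.88% in the middle and 0.941% in the dim class.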

How the data were processed

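Total RNA of whole roots was hybridised to Affymetrix AraGene 1.0 ST arrays. The authors deposited log2 values from RMA in oligo, and limma, R 4.0.0 and the TAIR10 build are also named, all per the submitters' processing notes. RMA as usually run forces arrays to a shared distribution, so a change common to most transcripts would not be seen. No detection calls or scan dates entered, so it is unknown which probe sets stood above background, and batches were not assessed.

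From these values limma 3.58.1 in R 4.3.3 (lmFit, eBayes) was fitted to all 9 arrays, which share the residual spread, for 17481 probe sets with at least 1 gene, with Benjamini-Hochberg adjustment over all of them. The fit was tested on simulated data. Names came from the platform annotation, of which 16574 probe sets were matched to a RefSeq table of assembly TAIR10.1 (used for names only) and 148 kept the platform symbol. Of 148 genes with several probe sets, calls differed for 14 and opposed for 0. In a list each locus was represented by its brightest probe set. The members and lists were chosen with earlier results of these data known. Of 45 lists drawn by symbol, 35 had a call. Of 82 drawn by words, 32 had at least 3 measured members and 20 of those a call. Genes named singly were the largest called changes, 12, 5 and 4 per direction in the bright, middle and dim classes, and up to 4 called members of smallest p per list. Further named genes were chosen after their values were seen. Levels are not compared between genes. A planned search of promoter motifs was not done, because no sequences were used here. Alternatives changed the arrays fitted, probe sets tested, filter, prior, centring, replicate block, brightness limits and each left-out array.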

Additional observations from a re-analysis of the deposited data

Results flagged for a closer look

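Calls were also made among probe sets that the comparison does not use. Of 20927 probe sets with no gene named here, 666 were called by limma between first-actuated and ground roots when every probe set of the table was tested, 362 higher and 304 lower, which is 3.18% of them. In the same fit 1211 of all 38408 probe sets were called, so the share among unnamed ones was close to that of the whole table. At least 2-fold were 143 of the higher and 86 of the lower ones, and the differences reached 2.84 and -2.32 on the log2 scale. Of the 666, 416 were bright. No gene is given for them. Groups of 3 arrays are too small for the test of single samples far from the rest, so none was made.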

How the results depend on the processing

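None of the 155 single genes examined changed direction under an alternative. Of these, 140 were tested under 12 alternatives and 81 kept the call in each. The other 15 are dim and drop out of the test limited to probe sets at or above the median, and 5 of them kept the call under the remaining 11. Counts over all probe sets tested moved more than directions. With only the 6 arrays of the compared groups fitted, which gives fewer samples for the spread, 512 probe sets were called, 258 higher and 254 lower, with 273 bright, 201 middle and 38 dim, against 855, 394, 461, 436, 339 and 80. With every probe set of the table tested, 635 were higher and 709 bright. Those counts take in the 20927 probe sets with no gene named, which held 666 of the 1211 calls, 416 of them bright. Under that setting 41 of the 155 single genes lost the call. A bright limit of 5 left 184 middle calls. Leaving out each array in turn gave 549 to 807 calls, 251 to 386 higher and 250 to 421 lower, with 283 to 411 bright, 217 to 313 middle and 46 to 83 dim, the total being 549 without ground replicate 1 and 557 without ground replicate 2. Replicate numbers did not pair the arrays: deviations of same-numbered arrays correlated at -0.065 to -0.047, and a fit with the replicate number as a block called 723. Over all settings the median difference of the tested probe sets lay no lower than -0.05. The limits are those of 1 tube per group, unknown signal over background for dim probe sets, and 14758 probe sets known by locus only.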
